A study of Mus musculus with 4 samples.

Results

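The internal sequences of ERVK endogenous retroviruses were examined in testis RNA of adult mice lacking Nef-sp, an RNA exonuclease of the testis, and of their heterozygous controls. The members were the repeat entries, sense or antisense, whose name ends in the class label LTR.ERVK and either contains -int or starts with IAP, with entries starting with RLTR10 left out. This gave 78 entries of 25745 in the count table, and they stand for 40 elements, 39 of them listed with sense reads and 39 with antisense reads. Of the elements, 29 carry -int, the mark used here for an internal sequence. The other 11 elements start with IAP but carry no -int, so they are described under their own names. Most of these, such as IAPLTR3 and IAPLTR1_Mm, are by name the long terminal repeats (LTRs) of IAP proviruses. IAPLTR4_I ends in _I instead and was kept with these 11.

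Total RNA from whole testis of mice labelled C57Bl/6J, at postnatal day 60, was depleted of ribosomal RNA and sequenced in 4 strand-specific libraries, 2 from Nef-sp -/- testes (mutant) and 2 from Nef-sp +/- testes (control). The mutant mice carry an out-of-frame deletion made with Cas9 nickase, kept as a single deletion line after founder females had been bred to C57Bl/6J Rj wild-type males, and the controls carry the same deletion on 1 allele. No wild-type library and no other age was analysed here. The labels do not say which libraries came from littermates or were prepared together, so the p-values below measure only the spread between these samples.

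ERVK elements are the mouse endogenous retroviruses of the betaretrovirus-like class. A full provirus has an LTR at each end, which holds the promoter and the polyadenylation signal, and between them the internal sequence, which encodes the Gag, protease and polymerase proteins and in a few groups an envelope. IAP (intracisternal A-particle), ETn and its coding relative MusD, and MMERVK10C proviruses belong to this class and include young copies, while most insertions are old and truncated. In germ cells these elements are known to be held down by DNA methylation, by KRAB zinc finger proteins that recruit Trim28 and Setdb1, and by piRNAs loaded on Piwi proteins. A sense read has the orientation of the element, and an antisense read the opposite orientation. The counts of an element were summed over all its copies in the genome, so a count grows with the number and length of the copies and is not a level per length. Related internal sequences are similar, and how reads that fit several copies were assigned is not given in the sources used here. Values of members that share sequence, such as IAPEz-int and IAPLTR3-int, are therefore uncertain as single values.

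The 4 libraries held between 20659865 and 34442517 annotated reads, the deepest being control replicate 2. Exon reads of Nef-sp itself (2610020H08Rik) were 1843 and 1693 normalized counts in the control libraries and 407 and 497 in the mutant libraries, a log2 fold change of -1.97 ± 0.0921 (SE, n = 2 per genotype, adjusted p = 4.1e-06), so the labels held. It was the only call among 10728 genes tested on exon sense reads, or 0.00932% of them. The summed level of 7 germ cell markers lay between 10734 and 12796 CPM (reads scaled to library size) in the control libraries and between 12530 and 12716 in the mutant libraries. Most reads of this sum came from Prm1, Prm2 and Tnp1. Tnp1 was higher in both mutant libraries (60173 and 69754 against 74025 and 72979 normalized counts). Ddx4 was lower in both (12208 and 11673 against 11509 and 11486), and the other germ cell markers overlapped. The 3 macrophage markers summed to between 3.43 and 3.92 CPM over the 4 libraries, and the Sertoli cell sums overlapped. The 4 Leydig cell markers summed to between 598 and 610 in the control and between 482 and 575 in the mutant libraries. Blood markers summed to 10.6 and 14.8 against 8.58 and 8.61, and peritubular myoid cell markers to 50.5 and 53.0 against 44.4 and 48.3. Of these, the blood marker Hba-a2 and the myoid marker Acta2 were lower in both mutant libraries. Hbb-b1 (blood) and Myh11 (myoid) overlapped, with log2 fold changes of -0.75 and -0.07. No marker passed the test, and the smallest p was that of the blood marker Hba-a2 (log2 fold change -0.57, edgeR adjusted p = 0.922). Of the Leydig cell markers, only Cyp17a1 was lower in both mutant libraries (10616 and 10209 against 9284 and 7950 normalized counts, log2 fold change -0.27). Star, Insl3 and Hsd3b6 overlapped, and their log2 fold changes lay above 0 (0.08, 0.18 and 0.01). In whole testis, fewer cells of a type and less RNA per cell cannot be told apart.

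ERVK internal sequences were a small part of testis RNA in both genotypes. Sense reads of the members made up 0.288% and 0.272% of the annotated reads of the control libraries and 0.284% and 0.325% of those of the mutant libraries. The genotypes thus overlapped, with the highest share in mutant replicate 2. As a share of repeat sense reads they gave 1.94% and 1.87% in the control libraries, and both mutant libraries lay above these, up to 2.21%. Antisense reads of the members took a larger share of their own class, 6.64% and 6.32% of repeat antisense reads in the control libraries against 5.85% and 6.42% in the mutant libraries. Within the ERVK family, the members held between 68.1% and 69.2% of the sense reads and between 58.5% and 61.4% of the antisense reads over the 4 libraries. A comparison of single values between 2 and 2 libraries cannot go below an exact permutation p of 0.333, so these shares are given as values.

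A few elements carried most of the reads. IAPEz-int, the internal sequence of the commonest IAP proviruses, held 19.8% of the members' sense reads over the 4 libraries, RLTR45-int 18.1% and MMERVK10C-int 14.4%. These 3 elements together held 52.4%, and the 10 elements with most reads held 86.0%, while 11 elements with fewer than 400 reads over the 4 libraries shared 0.827%. On the antisense strand IAPEz-int again came first, with 28.9% of the reads, but IAPLTR3-int followed with 17.6% and RLTR45-int was not among the first. Grouped by name, the 5 IAP internal sequences with -int held 31.6% of the sense reads and 49.7% of the antisense reads. The 4 ETn/MusD elements held 8.52% and 6.84%.

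**Figure D1:**
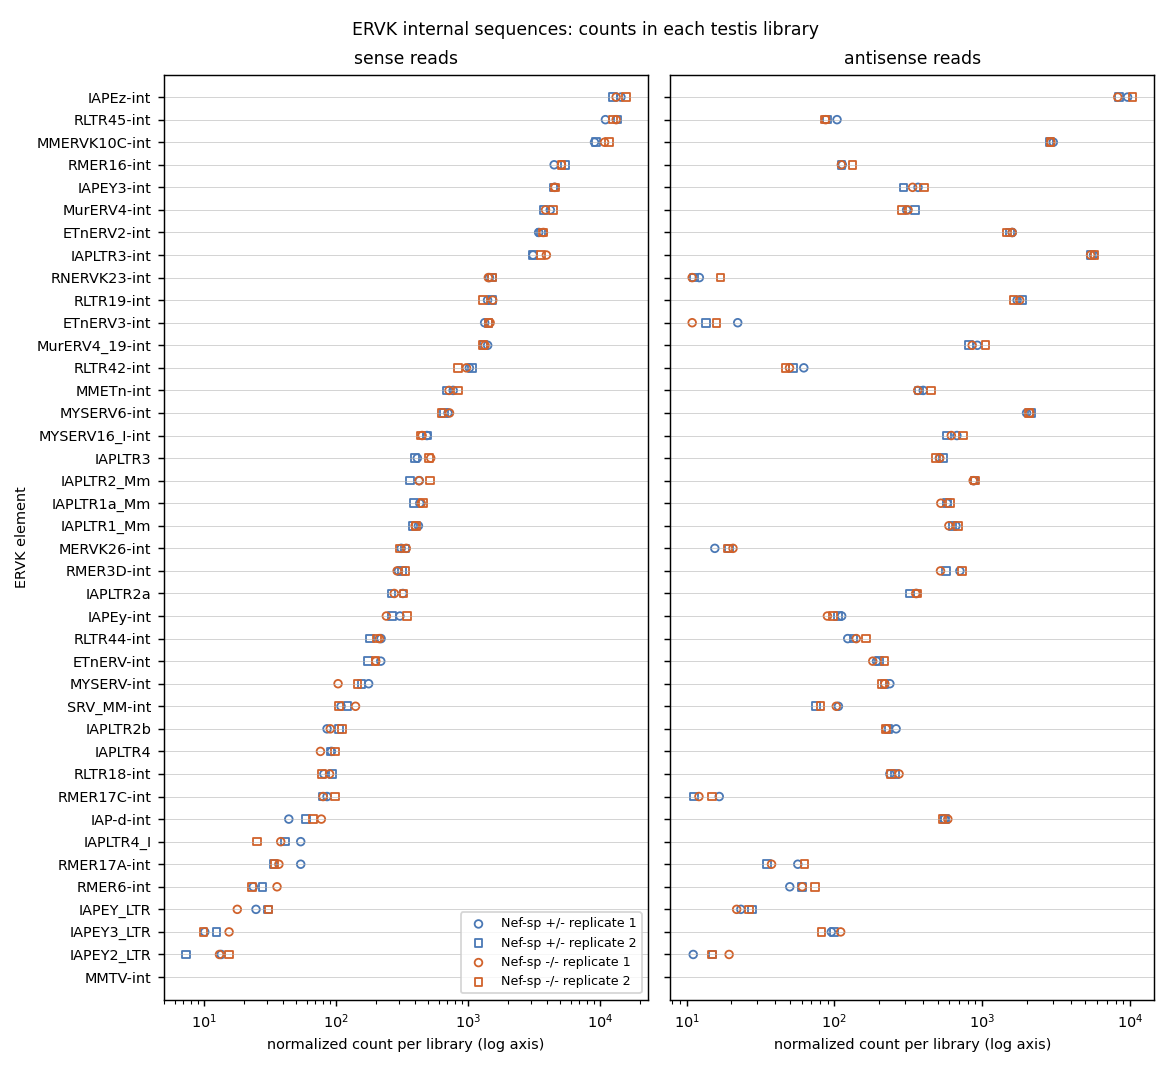
Normalized sense (left) and antisense (right) counts of each ERVK element that passed the filter, on log axes, with 1 point for each of the 4 libraries (blue control (Nef-sp +/-), orange mutant (Nef-sp -/-); circle replicate 1, square replicate 2). Sense counts run from 7.32 for IAPEY2_LTR to 15823 for IAPEz-int, and points of the 2 genotypes lie close together for nearly every element. MMTV-int had too few reads and IAPLTR4 and IAPLTR4_I are shown on the sense strand only.

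The first comparison asks whether sense RNA of these elements differed in testes without Nef-sp. MMERVK10C-int and the IAPLTR3 pair (IAPLTR3-int and the LTR IAPLTR3) had the smallest p-values, each with more sense reads in mutant testes, but no member passed the test adjusted over all repeats. All 39 elements listed with sense reads passed the filter on low counts. Of these, 0 had an adjusted p below 0.05 with edgeR, against 4 of the 578 repeats tested with sense reads (0.692%). At an unadjusted p below 0.05, 6 members (15.4%) passed, 4 of them higher and 2 lower in mutant testes, while 5.02% of all repeats did. DESeq2 also called 0 members, against 3 repeats in all (0.519%), and had 3 members at an unadjusted p below 0.05, against 2.42% of all repeats. The median log2 fold change of the members was 0.05, with 25 above 0 and 14 below. Over all repeats tested the median was 0.01, with 299 above 0 and 279 below. The other ERVK elements outside RLTR10 had the same tilt, with a median of 0.05, 51 above 0 and 29 below. In 7 members (17.9%) both mutant libraries lay above both control libraries, and in 4 (10.3%) both lay below. These shares were 14% and 15.6% of all repeats, and 23.8% and 11.2% of the other ERVK elements outside RLTR10. For 36 of the 39 elements the 95% interval of the log2 fold change stayed within 1 in either direction, and for 29 it stayed within 0.5.

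MMERVK10C-int is the internal sequence of a young ERVK group whose proviruses carry RLTR10-type LTRs. It had 9101 and 9305 normalized sense counts in the control libraries and 10839 and 11705 in the mutant libraries. Both mutant libraries were higher, and the genotypes did not overlap. The log2 fold change was 0.29 ± 0.0811 (SE, n = 2 per genotype), with a 95% interval from 0.12 to 0.47, which corresponds to 1.22-fold, and the adjusted p was 0.290 (unadjusted 0.0032). Without mutant replicate 1 the log2 fold change was 0.34, and without mutant replicate 2 it was 0.23. With the sense and antisense reads summed it was 0.22 (edgeR adjusted p = 0.919). A fit without a mutant library takes its spread from the 2 control libraries and assumes that the lone mutant library varies like them, so it does not measure the spread between mutant testes. The antisense counts of the same element were 3031 and 2858 in the control libraries and 2924 and 2897 in the mutant libraries. These overlapped, with a log2 fold change of -0.02 whose direction turned in other settings. Of the 8 RLTR10 entries with sense reads, which stand outside the members, 5 were higher in both mutant libraries, 3 of them with an adjusted p below 0.05, and the other 3 (RLTR10, RLTR10A and RLTR10D) overlapped. RLTR10-int had 782 and 737 sense counts in the control and 1028 and 1063 in the mutant libraries (adjusted p = 0.0269), and RLTR10C 849 and 878 against 947 and 1107 (adjusted p = 0.744).

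IAPLTR3 is an LTR of an IAP subgroup, and IAPLTR3-int the internal sequence named with it. IAPLTR3-int had 3112 and 3098 normalized sense counts in the control libraries and 3929 and 3598 in the mutant libraries. Its LTR had 414 and 395 against 522 and 505. Each of the pair was higher in both mutant libraries without overlap. The log2 fold changes were 0.28 ± 0.0809 (adjusted p = 0.290) for IAPLTR3-int and 0.35 ± 0.108 (adjusted p = 0.351) for IAPLTR3. Without mutant replicate 2 the log2 fold change of IAPLTR3-int was 0.33, and without mutant replicate 1 it was 0.21. With the sense and antisense reads summed it was 0.11 (edgeR adjusted p = 0.999). On the antisense strand the libraries overlapped for IAPLTR3-int, with 5685 and 5434 counts in control and 5423 and 5759 in mutant testes, and the log2 fold changes of the pair were 0.01 and -0.07. IAP-d-int, a scarce IAP internal sequence, had 44.0 and 59.3 sense counts in the control libraries and 77.5 and 67.2 in the mutant libraries, a log2 fold change of 0.45 ± 0.203 (adjusted p = 0.925). Leaving out single libraries moved that fold change between 0.29 and 0.71.

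Sense reads were lower in both mutant libraries for 4 members: MYSERV-int, MYSERV16_I-int, RLTR42-int and IAPLTR4_I. MYSERV16_I-int, named after its values were seen, had 489 and 492 counts in the control libraries and 450 and 443 in the mutant libraries. Its log2 fold change was -0.14 ± 0.106 (adjusted p = 0.998). MYSERV-int, of the old MYSERV group, had 177 and 157 counts in the control libraries and 104 and 146 in the mutant libraries. mutant replicate 1 was the lowest, and the log2 fold change was -0.41 ± 0.171 (adjusted p = 0.874). With the spread of the controls alone, it was -0.68 without mutant replicate 2 (adjusted p = 0.0457) and -0.19 without mutant replicate 1 (adjusted p = 0.937). RLTR42-int had 1026 and 1076 counts against 974 and 838, a log2 fold change of -0.22 ± 0.097 (adjusted p = 0.925). It was named on the sense strand after its values were seen, and single libraries left out moved the value from -0.33, without mutant replicate 1, to -0.12, without mutant replicate 2. IAPLTR4_I, which is listed with sense reads only, had 54.1 and 41.0 counts against 38.2 and 25.4, and its log2 fold change of -0.56 ± 0.264 was the lowest of all members (adjusted p = 0.998). It ranged from -0.87 without mutant replicate 1 to -0.28 without mutant replicate 2.

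**Figure D2:**
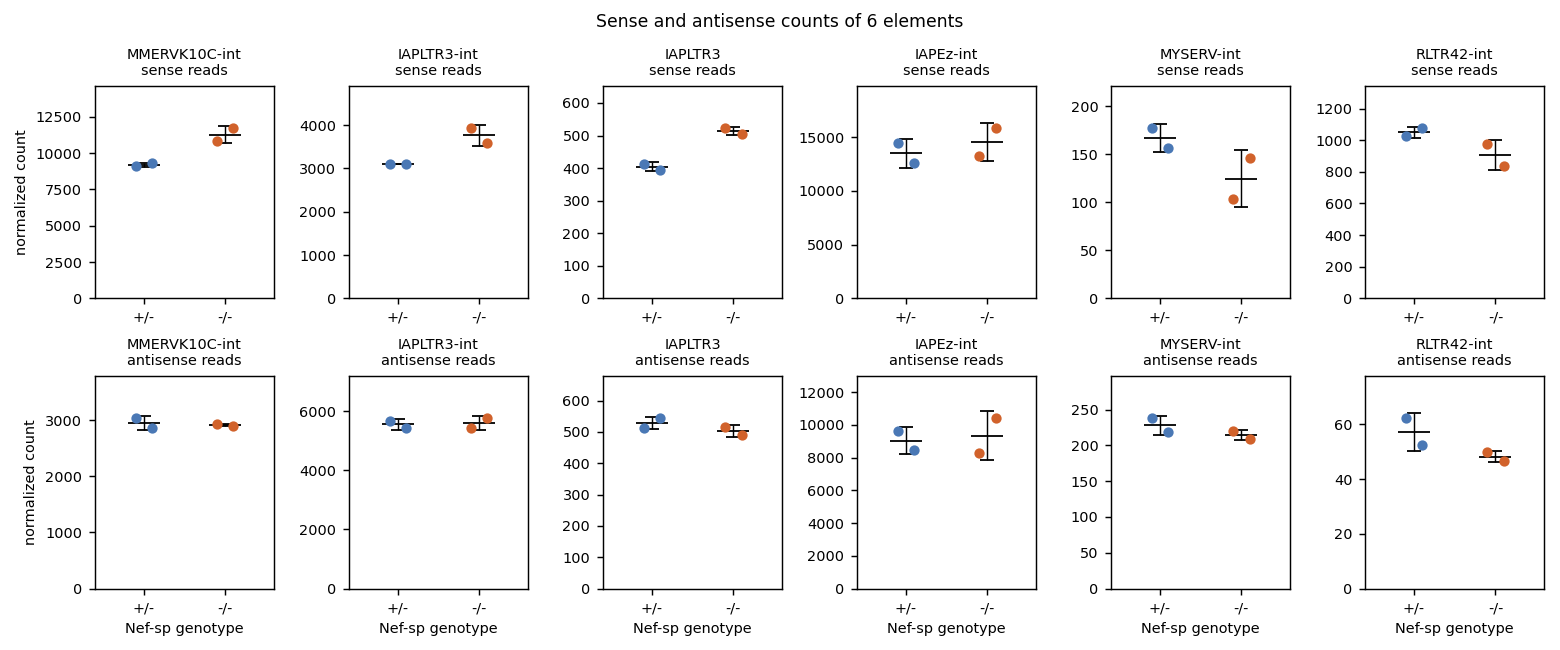
Normalized sense counts (top) and antisense counts (bottom) of 6 elements in the 2 control and 2 mutant libraries, from 0 on a linear axis of its own in each panel, with points for libraries and horizontal marks and bars for the mean ± SD of each genotype. The sense counts of MMERVK10C-int, IAPLTR3-int and IAPLTR3 lie higher in both mutant libraries, while their antisense counts do not separate in that direction.

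The most abundant elements showed how far libraries of the same genotype spread. IAPEz-int had 14432 and 12553 normalized sense counts in the control libraries and 13271 and 15823 in the mutant libraries. Its values overlapped, with control replicate 1 and mutant replicate 2 as the high library of each genotype, and the log2 fold change was 0.11 ± 0.101 (adjusted p = 0.998). RLTR45-int, named with the LTR RLTR45, had 11006 and 13571 counts in the control libraries and 13281 and 12542 in the mutant libraries, a log2 fold change of 0.07. RMER16-int had 4500 and 5442 against 5107 and 5102, with a log2 fold change of 0.04. For these 3 elements the 2 control libraries differed by more than the genotype means, and leaving out a single library turned the sign of the fold change.

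IAPEY3-int was among the steadiest, with 4512 and 4443 sense counts in the control libraries and 4567 and 4584 in the mutant libraries, a log2 fold change of 0.03 with an interval from -0.13 to 0.20. MurERV4-int had 4207 and 3775 counts against 3872 and 4393, and its log2 fold change of 0.05 also changed sign when a library was left out. ETnERV2-int, the most abundant member of the ETn/MusD group, had 3435 and 3579 counts in the control libraries and 3732 and 3689 in the mutant libraries. The genotypes did not overlap, but the log2 fold change was only 0.08 ± 0.0777 (adjusted p = 0.998). RNERVK23-int lay between 1428 and 1529 counts in all 4 libraries and RLTR19-int between 1294 and 1541, without separation of the genotypes.

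**Figure D3:**
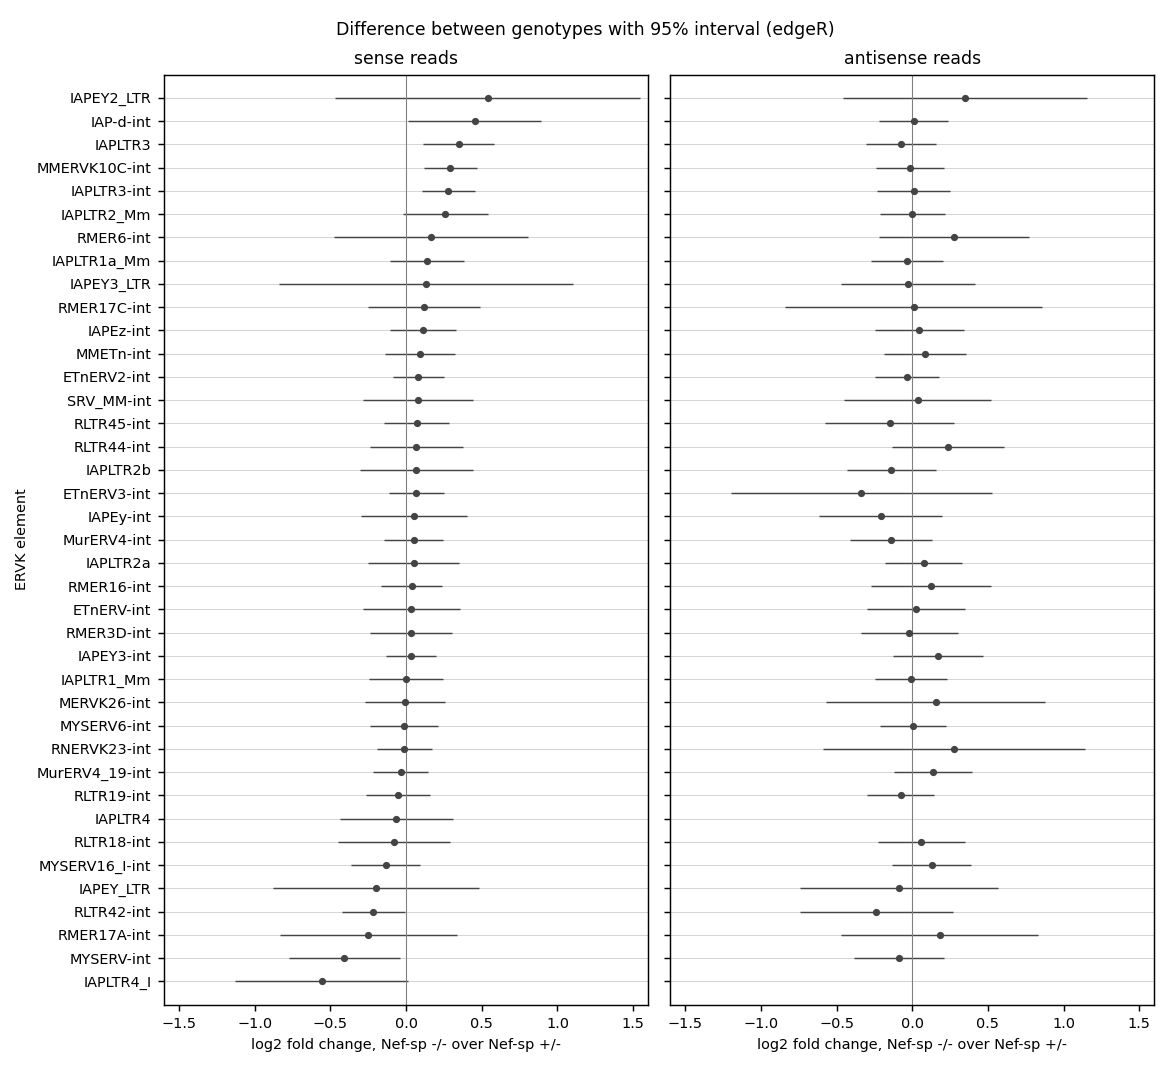
Log2 fold change of mutant over control testes for each element, with sense reads on the left and antisense reads on the right; points are edgeR estimates and bars 95% intervals, with elements ordered by the sense value. Estimates lie between -0.56 and 0.54 for sense and between -0.34 and 0.35 for antisense reads, and the widest intervals belong to scarce elements such as IAPEY2_LTR.

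The second comparison took the antisense reads. No member passed the test: 37 of the 39 elements listed passed the filter, 0 had an adjusted p below 0.05, and 0 had an unadjusted p below 0.05 with edgeR or DESeq2. Over all 553 repeats tested with antisense reads, 0% passed the adjusted threshold with either tool, and 2.35% passed the unadjusted threshold with edgeR and 1.08% with DESeq2. The members' median log2 fold change was 0.01, the same as over all repeats. Both mutant libraries lay above the controls in 1 member (2.70%) and below them in 4 (10.8%), beside 11.4% and 12.8% of all repeats. The intervals stayed within 1 in either direction for 34 elements and within 0.5 for 23.

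IAPEz-int had 9642 and 8446 normalized antisense counts in the control libraries and 8276 and 10398 in the mutant libraries. The high library of each genotype was the same as on the sense strand, and the log2 fold change was 0.05 ± 0.136. The other abundant antisense members stayed within narrow ranges that overlapped between genotypes. MYSERV6-int lay between 2000 and 2160 counts, RLTR19-int between 1628 and 1878, and ETnERV2-int between 1475 and 1600.

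The members without overlap on the antisense strand had from 211 (RLTR42-int) to 941 (IAPLTR2b) antisense reads over the 4 libraries. RLTR44-int had 123 and 135 antisense counts in the control libraries and 141 and 164 in the mutant libraries, a log2 fold change of 0.24. RLTR42-int had 62.2 and 52.5 against 49.8 and 46.8, a log2 fold change of -0.24, and so lay lower on both strands. The other members lower in both mutant libraries were IAPEy-int, RLTR45-int and IAPLTR2b, the last named after its values were seen. Their log2 fold changes were -0.21, -0.15 and -0.14, and the adjusted p of each tested member was 0.9997. Leaving out single libraries moved RLTR44-int between 0.12 and 0.33, RLTR42-int between -0.38 and -0.12, and RLTR45-int from -0.28, without control replicate 2, to -0.04, without control replicate 1. The elements that were not tested were IAPLTR4, with 1 and 13 antisense reads in the control libraries and 5 and 4 in the mutant libraries, and MMTV-int, related to the mouse mammary tumour virus, with 7 and 11 against 9 and 25.

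The members differed widely from one another in their strand. The share of antisense reads ranged from 0.715% for RLTR45-int to 90.1% for IAP-d-int. Of the 38 elements listed on both strands, all with at least 100 reads, 9 (23.7%) had less than 10% antisense reads and 19 had more than 50%. Over all 569 repeats with at least 100 reads these shares were 15.5% and 42.5%. The median was 49.5% for the members and 43.3% for all repeats. Among the members it was 40.01% for the 28 elements with -int and 56.8% for the 10 IAP elements without -int. The 93 other ERVK elements with at least 100 reads had a median of 42.2% and ranged from 0.182% to 98.4%. Of the 28 elements with -int, 11 had more than 50% antisense reads, and of the 10 IAP elements without -int, 8 did.

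Some of the elements with most sense reads had almost no antisense reads. RLTR45-int had between 0.637% and 0.953% antisense reads over the 4 libraries, RNERVK23-int between 0.713% and 1.14%, and RMER16-int between 1.96% and 2.63%. IAPEY3-int and MurERV4-int followed, with between 6.08% and 8.36% over both elements. IAPEz-int lay in the middle, between 38.0% and 40.5%, and ETnERV2-int between 29.3% and 32.1%. MYSERV6-int had mainly antisense reads, between 74.0% and 77.3%, as did IAP-d-int, between 88.1% and 92.8%. The share compares reads of the same element, so its length and copy number enter both strands alike.

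**Figure D4:**
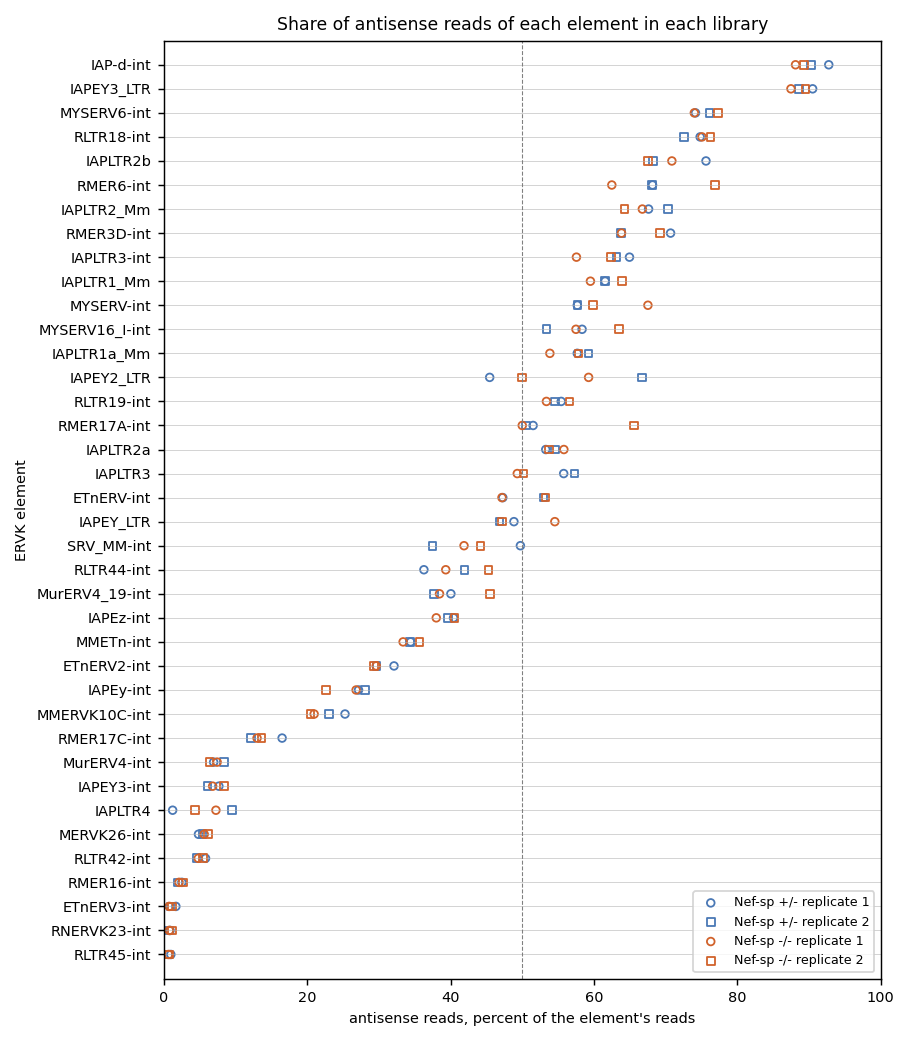
Antisense reads as a percentage of all reads of each ERVK element listed on both strands, with 1 point for each library (blue control (Nef-sp +/-), orange mutant (Nef-sp -/-); circle replicate 1, square replicate 2). Elements are ordered by the share over all libraries, from 0.715% for RLTR45-int to 90.1% for IAP-d-int, and the 4 libraries lie farthest apart for scarce elements such as IAPEY2_LTR.

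The strand of an internal sequence and of the LTRs named with it differed in some elements and not in others. An internal sequence and an LTR of the same name stem were compared in 17 pairs, from 8 members, with at least 100 reads of the LTR. Of these, 8 pairs lay on the same side of 50% antisense reads and 9 on opposite sides, where RLTR18B, with 49.6%, was close to that mark. All pairs were RLTR or RMER elements. The IAP LTRs are members themselves and were left out, and members without an ERVK LTR of the same name stem formed no pair. IAPLTR3-int and IAPLTR3 had 62.2% and 53.5% antisense reads, and IAPEY3-int and IAPEY3_LTR 7.11% and 89.0%. RLTR45-int had 0.715% antisense reads and the LTR RLTR45 57.9%. RLTR19-int had 54.9%, and the LTRs paired with it lay at both extremes, with 2.52% for RLTR19, 2.40% for RLTR19A and 97.8% for RLTR19C. For RMER16-int and RMER16, in contrast, reads were mainly sense in both, with 2.25% and 6.63% antisense. LTRs also exist as solo copies without an internal sequence, so the reads of an LTR and of an internal sequence need not come from the same insertions.

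The third comparison asked whether the ratio of sense to antisense reads differed between the genotypes. In this interaction test, in which each library served as its own block, 0 of the 38 members passed, against 2 of 609 repeats (0.328%). At an unadjusted p below 0.05 there were 4 members (10.5%), against 4.11% of all repeats, and they were MMERVK10C-int, IAPLTR3, IAPLTR3-int and IAP-d-int. All 4 had relatively more sense reads in mutant testes. The antisense share of MMERVK10C-int was 24.2% ± 1.55 in control and 20.7% ± 0.373 in mutant testes (SD, n = 2 each), and the log2 ratio of sense to antisense differed by 0.32 ± 0.101 (SE, edgeR adjusted p = 0.464). That of IAPLTR3 was 56.5% ± 1.08 against 49.7% ± 0.606, a difference of 0.43 on the same log2 scale (adjusted p = 0.464). IAPLTR3-int differed by 0.28 (adjusted p = 0.700) and IAP-d-int by 0.46 (adjusted p = 0.997). These are the members with the smallest p-values among those higher on the sense strand, and the same sense reads enter both tests.

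Genes that restrain endogenous retroviruses were read from a list of 60, of which 55 were matched and 52 tested on exon sense reads. None passed: 0 of 52 had an adjusted p below 0.05 with edgeR, and DESeq2 gave 0 as well, against 0.0186% of all genes. At an unadjusted p below 0.05 there was 1 with edgeR and 0 with DESeq2, while 4.8% of all genes tested passed with edgeR and 1.38% with DESeq2. The median log2 fold change of the list was -0.03, with 19 genes above 0 and 33 below, beside a median of -0.00 over all genes. The gene with the smallest p was Uhrf1, which brings the maintenance DNA methyltransferase to newly copied DNA, with 2155 and 1967 normalized counts in the control libraries and 1837 and 1860 in the mutant libraries. Its log2 fold change was -0.15 ± 0.0652 (adjusted p = 0.954).

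Of the 7 genes of the KRAB zinc finger pathway and its histone methylation, 0 passed, and 3 log2 fold changes lay above 0 and 4 below. Trim28, the corepressor that KRAB zinc finger proteins recruit, had 10114 and 9806 counts in the control libraries and 9430 and 8731 in the mutant libraries, a log2 fold change of -0.13. Its partner methyltransferase Setdb1 had a log2 fold change of -0.06, Atf7ip, which binds and stabilizes Setdb1, -0.16, and the transcription factor Yy1 -0.14. Those above 0 were Zfp809, a zinc finger protein that binds retroviral primer sites, Trim24 and Trim33, named after their values were seen. Zfp809 was the highest, with 96.7 and 83.8 counts in the control and 109 and 105 in the mutant libraries, a log2 fold change of 0.26. The adjusted p of each of the 7 was 0.954 or more.

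Of the germ cell factors, Dnmt3l, the cofactor of de novo DNA methylation, had 49.5 and 66.2 counts in the control and 60.1 and 80.5 in the mutant libraries, a log2 fold change of 0.24 that was 0.02 without mutant replicate 2. Morc1, a silencing factor of male germ cells, was as scarce and had a log2 fold change of -0.15. Piwil2, the Piwi protein MILI, had 6610 and 5815 counts against 5349 and 6345, which overlapped. Piwil4, the nuclear Piwi protein MIWI2, was not analysed here.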

How the data were processed

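Strand-specific total RNA libraries of testis (2 Nef-sp +/-, 2 Nef-sp -/-) were sequenced, and the authors aligned the reads to mm9 using software of their own. They retained reads without a mismatch and deposited raw read counts per feature in 10 annotation categories. The deposited columns of the authors' own comparison (mean, fold change, p and adjusted p) were not used. Groups and replicate numbers were taken from the labels.

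Repeat sense, repeat antisense and exon sense counts were each fitted over all features with edgeR 4.0.16 in R 4.3.3 (TMM, filterByExpr with a minimum count of 10, quasi-likelihood test, Benjamini-Hochberg within the category, threshold 0.05). Normalized counts are scaled to the mean effective library size of the category. The strand ratio was tested as a genotype by strand interaction with library as block. The scripts were tested on simulated data. DESeq2 1.42.0, other size factors and filters, a single fit, a replicate block and leaving out each library were alternatives.

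The members and lists were chosen with earlier results of these data known. Named were members past the threshold, the 10 highest on the sense and 6 highest on the antisense strand, the 4 with the largest change without overlap on each strand, the 3 with the smallest strand ratio p, the highest of each name group, the 4 silencing genes with the smallest p and Trim28, Setdb1, Dnmt3l, Piwil2, Piwil4 and Morc1. No sequence or coordinate of a repeat copy was used here. Read numbers limit precision for the scarce elements.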

Additional observations from a re-analysis of the deposited data

How the results depend on the processing

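No antisense, strand ratio or silencing gene result changed its count of 0 under the alternatives run. The sense count of 0 members stayed at 0 with the replicate block, ranged from 0 to 2 when single libraries were left out (1 of 10 repeats called without mutant replicate 1 and 2 of 7 without mutant replicate 2, with the lone mutant library assumed to vary like the controls), and was 2 (MMERVK10C-int and IAPLTR3-int, of 14 repeats called) in a block with crossed numbers, which was added after the data were seen because libraries of the same number deviated in opposite directions (correlation -0.213 for sense and -0.287 for antisense reads). The labels do not pair the libraries. The crossed block was chosen from deviations in these same counts, which lowers the spread it measures, so no conclusion is drawn from its calls. The members' sense median of 0.0513 was 0.0689 with total library sizes, 0.0915 in a single fit and 0.0329 with the strands summed, and ranged from 0.0208 to 0.0495 without single libraries, while the antisense median was 0.0644 in a single fit. Of 393 log2 fold changes of 33 named results under alternatives, 374 kept their direction and their side of the threshold, 5 passed it and 14 turned sign, all between -0.129 and 0.0366. Without single libraries, IAPEz-int ranged from -0.0285 to 0.228 (sense) and from -0.129 to 0.198 (antisense), MurERV4-int sense from -0.0478 to 0.139, RLTR45-int sense from -0.0652 to 0.228, RMER16-int sense from -0.0851 to 0.180, IAPLTR3-int antisense from -0.0367 to 0.0478, MMERVK10C-int antisense from -0.0706 to 0.0271 and Setdb1 from -0.146 to 0.0281. IAPLTR3-int antisense was -0.0048 without the filter, and MMERVK10C-int antisense was 0.0186 with total library sizes and 0.0366 in a single fit. The causes were not tested. With 2 libraries per genotype, groups were too small for a test of outlying libraries.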
